A study of Mus musculus with 12 samples.

Results

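Igf2bp2, Igf2bp3, Hnrnpa2b1, Hnrnpc and Fmr1 encode RNA-binding proteins that are described as readers of N6-methyladenosine (m6A) outside the YTH-domain family. They were taken by name, and all 5 were found among the 27013 genes of the expression table. In the peak lists, 6 of the 10290 m6A peaks and 9 of the 17843 peaks of the YTHDF2 list carried one of their symbols.

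The m6A mark is a methyl group on adenosine that is written on mRNA in the nucleus, mostly near stop codons and in 3′ UTRs, and recognised by reader proteins. YTHDF2 is a cytoplasmic reader that leads marked transcripts to decay. The IGF2BP proteins bind marked mRNAs and are known to protect them from decay. HNRNPC and HNRNPA2B1 are nuclear proteins that package new transcripts and act in splicing and microRNA processing, and HNRNPC reaches its uridine-rich sites more readily where m6A loosens the RNA structure. FMRP, the product of Fmr1, is a polysome-bound repressor of translation whose loss causes fragile X syndrome.

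The libraries were made to compare m6A between macrophages with and without Ythdf2 and to map the transcripts that YTHDF2 binds. The Ythdf2 cKO libraries came from bone marrow-derived macrophages of mice with a conditional knockout of Ythdf2, and the WT libraries from the same cells of wild-type mice, both on the C57BL/6 strain. Cells of both genotypes had been cultured in M-CSF at 20 ng/ml over 7 days and then given 100 ng/ml LPS with 20 ng/ml interferon gamma for 24 hours, which gives the M1 type. Altogether 12 libraries formed 6 groups of 2: m6A immunoprecipitates of cKO and of WT cells, their inputs, and a YTHDF2 immunoprecipitate of WT cells with its input. The labels used here give neither the driver of the deletion nor whether replicates came from separate mice. The p-values, standard errors and intervals may therefore measure technical spread. RNA was broken into fragments of about 100 nt before immunoprecipitation, and in such bulk RNA fewer cells of a type and less RNA per cell cannot be told apart.

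The values compared between genotypes are those of the authors' deposited table, named for the m6A input libraries, which gives 1 mean count and 1 fold change for a gene and no value per library, so library depth stays unknown here. Its header leaves the order of the genotypes unstated. Values above 0 are therefore called the side of Ythdf2, which was itself positive at 1.10 ± 0.16 (log2 fold change ± SE, adjusted p of 2.06e-09) by the authors' deposited table. Macrophage markers were abundant there, with mean normalized counts between 2991 and 107430 for all 8, while the 4 T and NK cell markers lay between 0.257 and 0.845. Other marker lists were not all so low. Their highest mean count was 8496 for neutrophil, 580 for fibroblast and 30.1 for dendritic cell markers. It was 14.2 for B cell, 10.3 for mast cell and 0.271 for erythroid markers. Of the macrophage markers, Itgam passed below 0 and Cd68 above 0 in the authors' deposited table; after centring Cd68 did not pass (adjusted p 0.0574) and Adgre1 passed below 0 (adjusted p 0.0247). The YTHDF2 list is named and labelled for the YTHDF2 libraries, but all 17843 of its peaks have names that begin with m6a_peak, and which libraries gave them was not tested. It is called the YTHDF2 list below.

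None of the readers passed the authors' test between the genotypes. Of the 5 genes, 4 had an adjusted p in the authors' deposited table and 0 of these were under 0.05, against 2.32% of the 10778 tested genes. Those genome-wide calls comprised 190 above 0 and 60 below, or 146 and 75 after centring on the most abundant 25% of genes. At an unadjusted p under 0.05 there was 1 of the 4, Igf2bp2, against 9.99% of tested genes. A count of 1 among 4 genes cannot be set apart from that share.

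Igf2bp2 encodes the IGF2BP family member that is also expressed in adult tissues, and it had the value farthest from 0 among the tested readers. It lies on chromosome 16, 22059009 to 22163299 (mm10 coordinates). Its mean normalized count in the authors' deposited table was 5008, and its log2 fold change was 0.32 ± 0.15 (SE), on the side of Ythdf2. The 95% interval from that standard error ran from 0.04 to 0.61, which is 1.03-fold to 1.52-fold. The authors' deposited table gave an unadjusted p of 0.0263 and an adjusted p of 0.362, so the difference did not pass over all genes. Of all tested genes, 15.4% lay at least as far from 0. The mean and fold change of the authors' deposited table together imply a fitted mean of about 5566 for the side of Ythdf2 and 4450 for the other, with no error per library. Of 4 fibroblast markers, a cell type such cultures could hold, 3 were tested and all 3 had values above 0 too. The share above 0 among all tested genes was 48.7%. The collagen gene Col1a1 passed, at 0.56 ± 0.17 with an adjusted p of 0.0491 by the authors' deposited table, but not after centring (adjusted p 0.0884). The mean normalized counts of the 4 markers ran from 27.9 to 580 in the authors' deposited table. Markers of the M1 state were on this side as well: all 7 that were tested lay above 0, against 48.7% of all tested genes. Their median was 0.25 in the authors' deposited table. The chemokine genes Cxcl9, at 0.62 ± 0.15 (adjusted p 0.00297), and Cxcl10, at 0.55 ± 0.13 (adjusted p 0.00276), passed by the authors' deposited table, and both passed after centring too. Among all tested genes 2.32% passed in the authors' deposited table. The part of either marker list in the Igf2bp2 value was not tested.

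Igf2bp3, a family member best known from embryonic tissue and tumours, was barely detected. It lies on chromosome 6, 49085218 to 49215469. A mean normalized count of 32.9 in the authors' deposited table put it below 48, the lowest mean of a gene with an adjusted p. Its log2 fold change there was −0.56 ± 0.58, and its 95% interval from −1.70 to 0.57 reached from 0.309-fold to 1.48-fold. That interval held a negative difference as large as the Ythdf2 value, so a change of that size and direction was not excluded at this count. A positive difference of that size lay outside the interval. The third family member, Igf2bp1, had a mean normalized count of 9.09 and no adjusted p in the authors' deposited table.

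The nuclear readers were measured with the smallest errors. Hnrnpa2b1, on chromosome 6, 51460434 to 51470048, had a mean normalized count of 10638 and a log2 fold change of −0.041 ± 0.12 (adjusted p 0.997), as the authors' deposited table gives them. Its 95% interval, −0.27 to 0.19, held no difference beyond 0.828-fold or 1.14-fold. Hnrnpc, on chromosome 14, 52073377 to 52104039, was at −0.063 ± 0.13 with a mean normalized count of 2913 (adjusted p 0.98) according to the authors' deposited table, and its interval ran from −0.31 to 0.18. Of tested genes, 6.95% had a smaller standard error than Hnrnpa2b1 and 14.5% a smaller one than Hnrnpc.

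Fmr1, on chromosome X, 68678536 to 68717963, lay closest to 0. Its log2 fold change was −0.0050 ± 0.16 at a mean normalized count of 947 (adjusted p 0.9997), by the authors' deposited table. The interval from −0.31 to 0.30, or 0.805-fold to 1.23-fold, did not hold a change as large as that of Ythdf2. Of tested genes, 97.7% lay at least as far from 0. Whether the readers differed from each other could not be tested without values per library. Mean counts depend on transcript length as well as abundance, so the abundance of the readers was not ranked by them. They serve to sort genes into bins and to mark low or high counts.

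**Figure D1:**
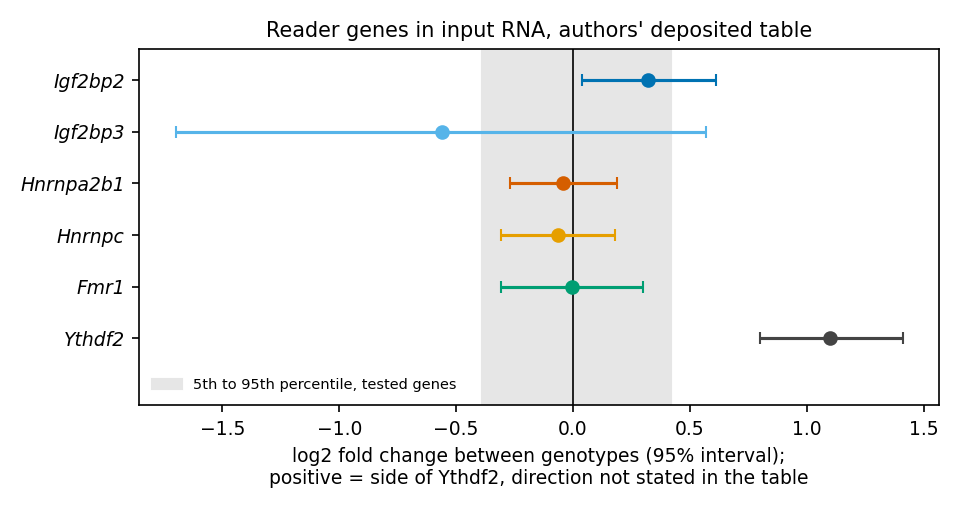
Log2 fold change of input RNA between the genotypes for the 5 readers and Ythdf2, with 95% intervals as bars; positive values are on the side of Ythdf2, and the grey band spans the 5th to 95th percentile of tested genes (−0.39 to 0.42). The intervals of Hnrnpa2b1, Hnrnpc and Fmr1 lie within the band and hold 0, that of Igf2bp2 starts at 0.04, and that of Igf2bp3 is the widest.

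In the WT lists, 3 of the 5 reader genes carried m6A peaks and 4 carried peaks of the YTHDF2 list. Among tested genes the shares were 45.4% with an m6A peak and 64.6% with a YTHDF2-list peak. Both lists held more of the genes with high mean counts. Tested genes were set in 10 equal bins by mean count. In the highest, which holds Igf2bp2 and Hnrnpa2b1, 68.5% had an m6A peak and 89.3% a YTHDF2-list peak. In the bin next to it, that of Hnrnpc, the shares were 67.3% and 89.1%, and in the bin of Fmr1 they were 52% and 75.9%. Igf2bp3 had no peak in either list, like most genes of its level: of 2814 untested genes with a mean count of 10 or more, 3.09% had an m6A peak and 5.44% a YTHDF2-list peak. The absence of a peak at such a count says nothing about the mark.

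**Figure D2:**
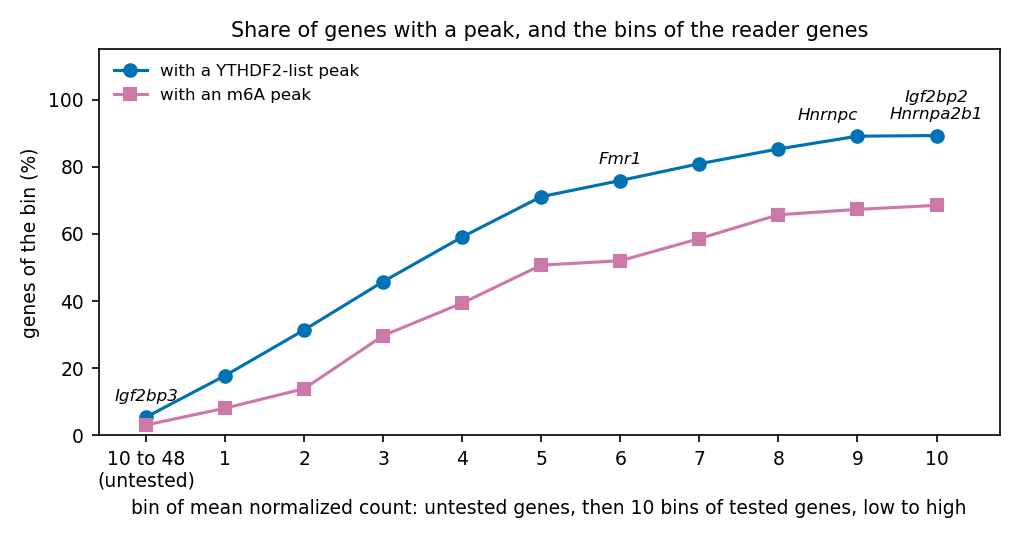
Share of genes with an m6A peak (squares) and with a YTHDF2-list peak (circles), in percent, by bin of mean normalized count: untested genes with a mean of 10 or more, then 10 equal bins of tested genes. The reader genes are written above their bins, and the shares are 68.5% and 89.3% in the bin of Igf2bp2 and Hnrnpa2b1, against 3.09% and 5.44% in that of Igf2bp3.

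Igf2bp2 had 2 m6A peaks and 2 YTHDF2-list peaks, 3 of them at its 3′ end. The m6A peak at 22059484 to 22059983 lay in the 3′ UTR and shared 83 bp with the YTHDF2-list peak at 22059901 to 22060332. The summit of that YTHDF2-list peak was 743 bp downstream of the last coding base, and its fold enrichment, the authors' own value for a peak, was 2.48. A further YTHDF2-list peak at 22060805 to 22061023 (fold enrichment 3.04) had its summit 94 bp upstream of the last coding base, 3 bp inside the intron beside the final coding exon. The remaining m6A peak, 50 bp at 22121206 to 22121255, stood 60182 bp from the nearest YTHDF2-list peak, at 40.3% of the gene's length.

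Hnrnpa2b1 carried 3 m6A peaks and 3 YTHDF2-list peaks, a number that 9.79% of tested genes reached for m6A and 23.1% for the YTHDF2 list. The m6A peak at 51463343 to 51464712 and the YTHDF2-list peak at 51463116 to 51463629 (fold enrichment 2.50) both held the last coding base. They shared 287 bp of the genome, introns included. The summit of that YTHDF2-list peak lay 187 bp downstream of the last coding base, in what the list annotates as an intron. The m6A peak at 51466064 to 51466603 and the YTHDF2-list peak at 51466178 to 51466857 (fold enrichment 3.31) shared 426 bp, introns included. That YTHDF2-list peak had its summit at the first base of a coding exon. Its −log10 q of 34.2 was above that of 97.6% of the list. The m6A peak at 51465088 to 51465888 touched no YTHDF2-list peak, with a gap of 289 bp to the nearest. The third YTHDF2-list peak, at 51461316 to 51461560, overlapped a listed intron and the distal 3′ UTR, with its summit in the 3′ UTR. It was the weakest of the readers' peaks at a fold enrichment of 1.96, with 6.03% of the list below it.

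Hnrnpc had 1 peak of each kind under its own symbol, and they overlapped at the end of the coding sequence. A further m6A peak, listed under another symbol at 52099043 to 52099142 on the minus strand, has positions within the numbers of Hnrnpc, and whether it lies there was not settled. The m6A peak at 52074977 to 52075696 and the YTHDF2-list peak at 52074680 to 52075546 shared 570 bp of the genome, introns included. That was 79.2% of the m6A peak, and both peaks held the last coding base. The summit was the first base of the final coding exon, 79 bp upstream of that base, with a fold enrichment of 2.55.

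Fmr1 had 3 YTHDF2-list peaks and no m6A peak under its own symbol. The m6A list gives no chromosome, and 2 of its peaks under another symbol, Gm27838, have positions within the numbers of Fmr1, so whether they lie in Fmr1 was not settled. The fold enrichments of the YTHDF2-list peaks, 4.44, 4.18 and 4.14, were the highest among the readers, and 86.7%, 82.7% and 82.1% of the list lay below them. The highest −log10 q among the readers, 34.2, was in Hnrnpa2b1. For the 3 Fmr1 peaks it was 22, 32.9 and 17.1, above that of 82.6%, 96.9% and 66.7% of the list. The first, at 68710462 to 68710661, had its summit 4 bp from an exon edge and 5094 bp upstream of the last coding base. The second, at 68715422 to 68715777, held the last coding base, and its summit was in coding sequence 77 bp upstream of it. The third, at 68716856 to 68717333, lay in the 3′ UTR with its summit 1325 bp downstream. Of tested genes, 849 (7.88%) had 3 or more YTHDF2-list peaks and no m6A peak. In the authors' deposited table the median log2 fold change of those 849 genes was 0.010, and 26 of them (3.06%) passed, against 2.32% of all tested genes.

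**Figure D3:**
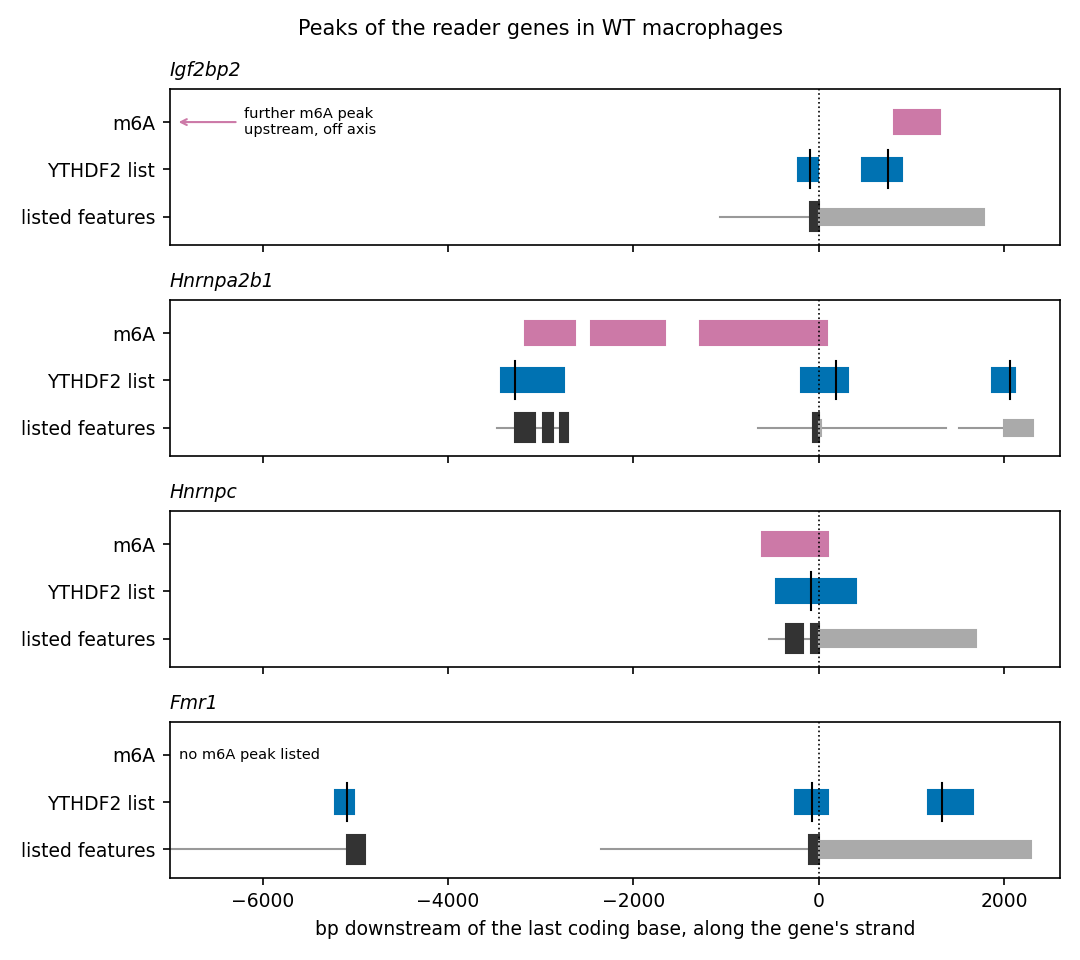
Peaks of the 4 readers that have any, drawn to scale against the last coding base (dotted line, distance in bp along the gene's strand). Pink bars are m6A peaks, blue bars YTHDF2-list peaks with their summits as black ticks, and the lowest row shows the features the list names (dark: coding, light: 3′ UTR, line: intron). Peaks of both lists meet at the end of the coding sequence in Hnrnpa2b1 and Hnrnpc, and Fmr1 has peaks of the YTHDF2 list and none of the m6A list under its symbol.

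Over the 4 genes, 4 of 6 m6A peaks (66.7%) shared at least 1 bp with a YTHDF2-list peak, against 49% of the 9345 m6A peaks that could be placed on a chromosome. In the other direction 4 of 9 YTHDF2-list peaks (44.4%) shared a base with an m6A peak, against 23.2% of the whole list. With so few peaks in so few genes these shares are a description. Summits fell evenly, with 3 each in 3′ UTR, coding sequence and intron, against 39.2%, 35.7% and 23.1% of all placed summits. The last coding base beside the 3′ UTR was held by 3 of the 9 peaks, in Hnrnpa2b1, Hnrnpc and Fmr1, and by 22.4% of all peaks. For 4 of the 9, in Igf2bp2, Hnrnpa2b1, Hnrnpc and Fmr1, the summit was within 5 bp of the edge of a listed coding or UTR stretch. A border of coding sequence and UTR inside an exon counts as such an edge. The share was 11.7% of the 16931 peaks that touch such a stretch. The distance of 5 bp was chosen after the values were seen.

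**Figure D4:**
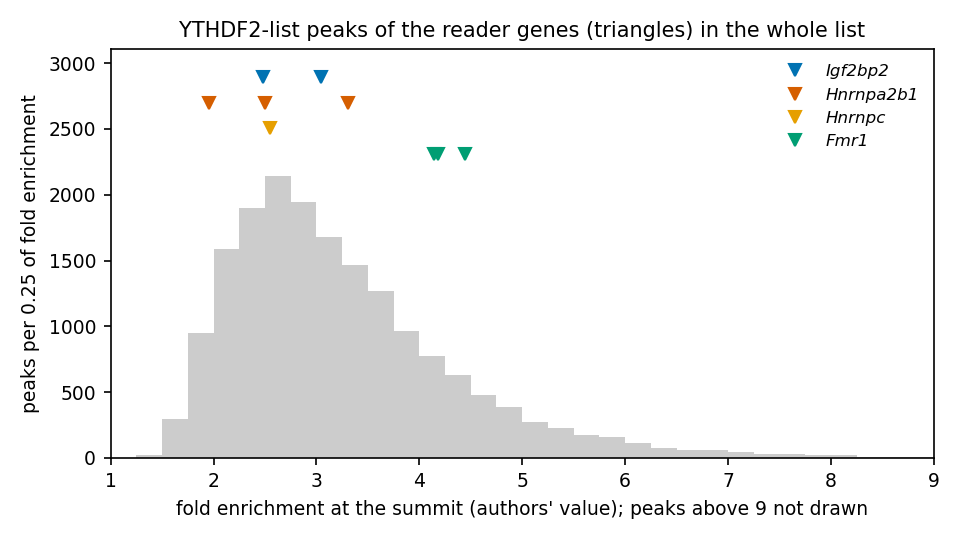
Fold enrichment at the summit for the whole YTHDF2 list (grey, peaks per 0.25) and for the 9 peaks of the readers (triangles, 1 row a gene). The 3 peaks of Fmr1 lie between 4.14 and 4.44, above the 6 of the other readers, which lie between 1.96 and 3.31 around the list's median of 3.01.

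None of the genes related to the readers passed in the input RNA. Of 54 genes in 6 related lists, 48 were tested in the authors' deposited table, 0 passed, against 2.32% of all tested genes, and 4 had an unadjusted p under 0.05, against 9.99%. Values of 26 lay above 0 and of 22 below, and the median of 0.0081 stood beside a median of −0.0054 over all tested genes.

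Among the paralogs, the FMRP relatives Fxr1 and Fxr2 were at 0.11 ± 0.12 and 0.086 ± 0.13 in the authors' deposited table. The Hnrnpa2b1 relatives Hnrnpa0, Hnrnpa1 and Hnrnpa3, which encode hnRNPs of the same subfamily, were at −0.062 ± 0.13, −0.30 ± 0.16 and −0.12 ± 0.15 in the authors' deposited table. Raly, a relative of Hnrnpc, was at 0.030 ± 0.13 there, and Ralyl had a mean normalized count of 0.257 and no adjusted p in the authors' deposited table. None of the 6 tested paralogs passed, against 2.32% of all tested genes, and the lowest adjusted p was the 0.541 of Hnrnpa1. Several hnRNP genes have processed copies, and how shared reads were counted was not given in these sources.

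Their peaks differed from gene to gene. Fxr1 carried 6 m6A and 4 YTHDF2-list peaks, and Fxr2 carried 1 m6A and 8 YTHDF2-list peaks, so both relatives of Fmr1 had m6A peaks under their symbols, unlike Fmr1. By the symbols as listed, Hnrnpa3 resembled Fmr1, with 5 YTHDF2-list peaks and no m6A peak, and Raly had none of either kind. Whether Fmr1 holds the m6A peaks listed under Gm27838 was not settled.

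The 20 other hnRNP genes were all tested, with 9 values above 0 and 11 below. Against 2.32% of all tested genes, 0 of the 20 passed in the authors' deposited table, where their median was −0.024. Of these genes, 14 (70%) had an m6A peak and 19 (95%) a YTHDF2-list peak, against 45.4% and 64.6% of all tested genes and 68.5% and 89.3% of those in the highest bin of mean count. Hnrnpab carried the most m6A peaks of this list, 5, and Ptbp3, which encodes a splicing repressor, the most YTHDF2-list peaks, 8. The gene without a YTHDF2-list peak was Hnrnpu, a nuclear scaffold factor. Its mean normalized count of 201 in the authors' deposited table put it in bin 3 from the lowest, where 45.8% of genes had such a peak. Hnrnpu lay far from 0 with a large error, at 4.41 ± 1.60 according to the authors' deposited table. The median standard error of tested genes was 0.17. It had an unadjusted p of 0.00587 and did not pass after adjustment (adjusted p 0.149), as the authors' deposited table gives them.

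Partners of FMRP included a pair of genes with an unadjusted p under 0.05, neither of which passed. The share among all tested genes was 9.99%, and a count of 2 among 5 cannot be set apart from it. Cyfip2, which links FMRP to actin regulation, was at 0.35 ± 0.13 (adjusted p of 0.147) and Nufip2, an FMRP-interacting protein, at 0.25 ± 0.12 (adjusted p 0.493), as given in the authors' deposited table. Nufip2 carried 3 m6A and 6 YTHDF2-list peaks, and Nufip1 and Caprin1 also had 3 m6A peaks each. Of the partners of HNRNPA2B1 in microRNA processing and DNA sensing, 3 were tested and had no m6A peak, while Drosha, the nuclear microRNA processing enzyme, and Tbk1 had 1 YTHDF2-list peak each. Tbk1, the kinase of the interferon pathway, was at 0.19 ± 0.12 in the authors' deposited table.

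Among other RNA-binding proteins linked to m6A, none of 7 passed, against 2.32% of all tested genes. Their median was −0.040 in the authors' deposited table. Prrc2a, a further m6A reader, was at −0.040 ± 0.11 there and carried 4 m6A and 9 YTHDF2-list peaks, the most of any related gene in the YTHDF2 list. Of mRNAs that IGF2BP proteins bind in other cells, 7 were tested and 0 passed. In either of these lists, a count of 0 among 7 cannot be set apart from the share of 2.32%. The chromatin protein gene Hmga1 was at 0.27 ± 0.13 (adjusted p 0.438), going by the authors' deposited table. Actb, a cytoskeletal actin gene, and Cd44, an adhesion receptor gene, had the most YTHDF2-list peaks of these mRNAs, 3 each.

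**Figure D5:**
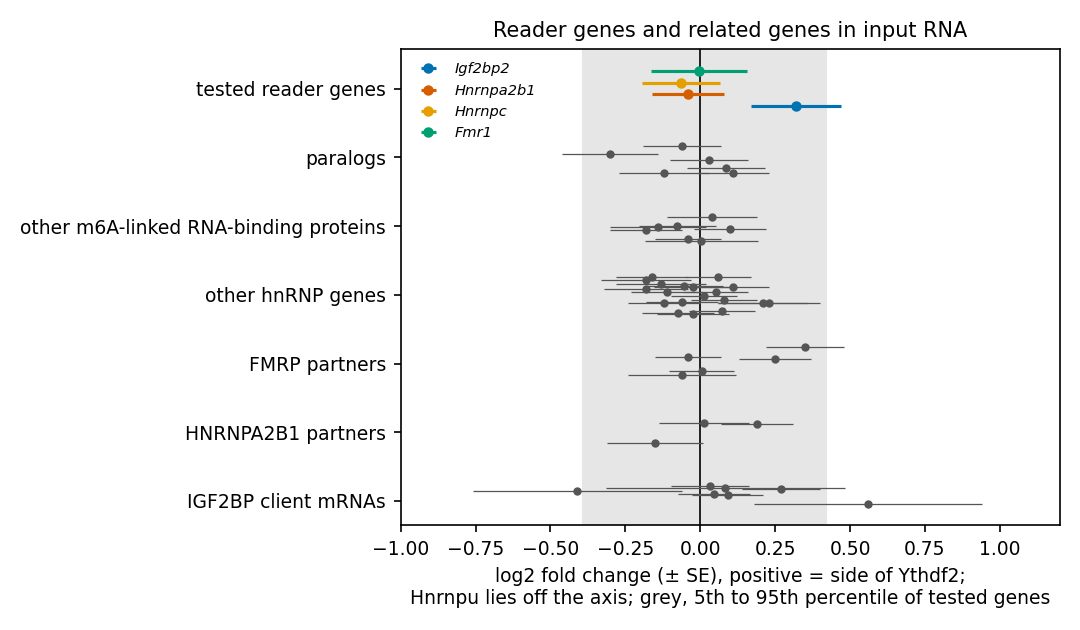
Log2 fold change ± SE of the 4 tested readers (coloured) and of tested genes in 6 related lists (grey points); positive values are on the side of Ythdf2, and the grey band spans the 5th to 95th percentile of tested genes. Most points lie within the band, and Hnrnpu at 4.41 is off the axis.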

How the data were processed

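No value per library was used. For each gene the authors deposited an average signal, the mean of counts divided by size factors, under column names that DESeq2 gives its results. The log2 fold change and its standard error were deposited by the authors, as was the Wald statistic, a score that equalled their ratio. The p-value and adjusted p-value were deposited too, and the adjusted one equalled a Benjamini-Hochberg adjustment over 10778 genes. The m6A list, per its file name from exomePeak2, gives gene, start, end and strand without chromosome. The YTHDF2 list gives, in narrow-peak order as deposited, a score, a fold enrichment ratio, −log10 q, and overlapped features. Both are single WT lists. HISAT2, HOMER, ChIPseeker and mm10 stand in the submitters' processing notes without a role; the peak caller of the YTHDF2 list is not stated.

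Of 45541 YTHDF2-list lines, 3234 repeats were dropped. m6A peaks were placed on the chromosome of the RefSeq gene (GRCm38.p6) of their symbol within 1000 bp, and 9345 of 10290 were. Coordinates are 1-based. Intervals used the deposited standard error at 95%. The members and lists were chosen with earlier results of these data known. The text names the readers, all paralogs, list genes with an unadjusted p under 0.05, and those with the most peaks of a list, except for an item that is not reported here; Cbx3, Gm27838 and the cell markers that passed were added after values were seen. Scripts (Python 3.11.15, SciPy 1.17.1) were tested on simulated data. Sequences under the peaks were not used here.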

Additional observations from a re-analysis of the deposited data

How the results depend on the processing

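Of 17 recomputed values, 16 kept their direction and their side of the threshold or stayed within 1.5 times the count reported. With an adjusted p under 0.1, with no filter on low counts and with centring on the most abundant 25% of genes, 0 readers and 0 related genes passed. Over all genes, 334, 180 and 221 passed in these settings. A count of 0 among so few genes cannot be set apart from such totals. Igf2bp2 had an adjusted p of 0.874 with no filter and 0.492 with centring. The exception was the count of YTHDF2-list peaks in the readers, which was 5 in place of 9 at a fold enrichment of at least 3, a limit that 50.5% of the whole list met. When 50% of the shorter peak had to be shared, 3 m6A peaks overlapped in place of 4, against 40.7% of all placed m6A peaks. No paired analysis was possible because the deposited files give no value per library, and for the same reason leaving out replicates and other normalizations were not run.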

Other observations

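A few values near the readers belong to no comparison. Cbx3, a heterochromatin protein gene that lies 105 bp from Hnrnpa2b1, was at −0.20 ± 0.19 (adjusted p of 0.895) by the authors' deposited table; it was chosen after its values were seen. It carried 2 m6A peaks and no YTHDF2-list peak, whereas Hnrnpa2b1 carried 3 of each.

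The m6A list gives no chromosome, and some of its symbols could not be placed through the RefSeq table. A symbol of this kind, Gm27838, has 2 m6A peaks on the plus strand at 68700221 to 68703723 and 68712225 to 68715541. These numbers fall within the span of Fmr1, also on the plus strand, and the second would share 120 bp with the YTHDF2-list peak at the end of the Fmr1 coding sequence if it lay on chromosome X. Whether it does was not tested, and the statement that Fmr1 has no m6A peak rests on the symbols as listed.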
